A study of Mus musculus with 24 samples.

Results

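The response of the mouse mammary gland to progesterone was read 16 h after the first injection, in 3 progesterone arrays against 3 oil arrays. These are 6 of the 24 arrays of a series that also covers 4, 28 and 76 h, and they were taken by the treatment and time in the sample titles. All mice of both groups were nulliparous Balb/c mice whose ovaries had been removed at 6 weeks of age, followed by 2 weeks without treatment. Progesterone, 1 mg in 100 µl of sesame oil, was then injected under the skin, and the oil mice were given 100 µl of the same oil without hormone. Injections were daily, so that a mouse killed at 16 h would have had 1 injection, while time and number of injections cannot be told apart at 28 and 76 h. Each array carried RNA pooled from 5 mice on an Affymetrix Mouse Genome 430 2.0 array, which reads a gene by 1 or more sets of short probes. A p-value therefore measures the spread between pools and not between mice.

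Progesterone acts through its receptor, a transcription factor that the gene Pgr encodes. In the mammary epithelium the receptor is made by part of the luminal cells, called hormone-sensing, which line the duct and do not themselves carry most of the hormone's effect on growth. They pass it on by secreted proteins, among them the WNT ligand Wnt4 and the cytokine RANKL, gene Tnfsf11, to neighbouring luminal cells and to the basal layer, whose cells make keratins 5, 14 and 17 and contractile proteins. In whole-gland RNA these cells are mixed with fat, connective tissue, vessels and lymphoid tissue. A lower value can mean fewer cells of a type or less RNA in each, which cannot be told apart here.

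The tissue label was borne out by its markers. The luminal keratin Krt18 had an intensity of 2117 ± 202 in oil (mean ± SD, n = 3 arrays, as for all intensities below), the basal keratin Krt5 193 ± 10.8 and the fat hormone Adipoq 11576 ± 694, while the milk protein Csn2 was near the lowest values of the table at 8.03 ± 4.31. Skeletal muscle RNA was present too, with the muscle actin Acta1 at 8554 ± 1641.

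One array stood apart before any gene was tested. Over the 12352 genes analysed, the log2 values of progesterone replicate 1 correlated with oil replicates 1, 2 and 3 at r = 0.989, 0.989 and 0.979, but with progesterone replicates 2 and 3 only at 0.979 and 0.966. These points are genes of the same arrays and no independent replicates. Progesterone replicates 2 and 3 correlated with each other at 0.982, and the oil arrays among themselves at 0.982 to 0.992. In a fit that weights arrays by their residual spread, progesterone replicate 1 received 0.216, the lowest of the 24 weights, but progesterone replicate 3 and oil replicate 3 were also low, at 0.353 and 0.352. The comparison was therefore made with all 6 arrays and again without this one, which was singled out with its deviation already known. As the 1 measure of RNA quality available, the log2 ratio of 3' to 5' control probes was 0.307 ± 0.0873 in oil and 0.326 ± 0.0168 with progesterone for Actb (exact two-sided permutation p = 0.8, where 0.1 is the smallest possible), and -0.155 ± 0.115 and -0.192 ± 0.0561 for Gapdh (p = 0.7, exact permutation).

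With all 6 arrays, the test across all genes called 38 of 12352 genes as changed, 13 upwards and 25 downwards (limma, Benjamini-Hochberg adjusted p under 0.05). That is 0.308% of the genes tested, 0.105% higher and 0.202% lower, against a median log2 difference over all genes of -0.07. In each of the 38 the 3 progesterone arrays lay wholly to 1 side of the 3 oil arrays, which was also true of 17.1% of all genes tested. The split moved with the scaling and the controls: it was 8 higher to 26 lower with arrays centred on their medians, 15 to 19 after quantile normalization, and 283 to 276 with the oil arrays from 4, 28 and 76 h as controls. The count depended on single arrays: leaving out oil replicate 1, 2 or 3 gave 20, 8 and 18 genes, and leaving out progesterone replicate 2 or 3 gave 9 and 16, whereas leaving out progesterone replicate 1 gave 1843. The genes Upk3a, Tspan1, Pgr, Wnt4, Ccn2, Slc12a2, Tceal9 and Dnajc12 were called in every one of these 6 fits.

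**Figure D1:**
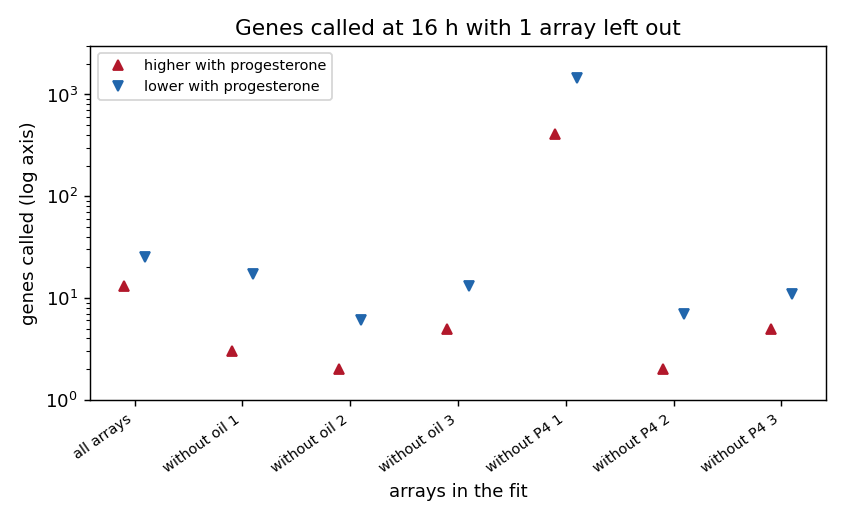
Number of genes called at 16 h (log axis) with all arrays and with each of the 6 arrays at 16 h left out, upward triangles for genes higher and downward triangles for genes lower with progesterone. Counts lie between 2 and 25 in each direction except without progesterone replicate 1 (P4 1), where 406 genes were higher and 1437 lower.

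The receptor transcript fell. Pgr had intensities of 394, 413 and 588 on oil replicates 1 to 3 and of 148, 186 and 175 on progesterone replicates 1 to 3. All 3 progesterone arrays were below all oil arrays, and replicate 1 was the lowest of them. The log2 change was -1.44 ± 0.21 (SE, as for all log2 changes below; adjusted p = 0.00119). The estrogen receptor gene Esr1, made by the hormone-sensing cells too, stood at 1226 ± 27.4 in oil and 1308 ± 107 with progesterone, a log2 difference of 0.09 ± 0.12 that did not pass the test.

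The ligand Wnt4 rose. Its intensities were 89.3, 98.2 and 78.9 in oil and 237, 227 and 206 with progesterone, without overlap, a log2 change of 1.33 ± 0.22 (adjusted p = 0.00484). A second probe set of the gene rose by 0.95 (limma, adjusted p = 0.00994 over all probe sets). The other secreted signal, Tnfsf11, read 45.9, 46.7 and 52.4 in oil and 70.5, 33.0 and 28.0 with progesterone. The progesterone arrays lay on both sides of the oil arrays, with replicate 1 above them, and the log2 difference of -0.26 ± 0.29 did not pass the test. Its receptor gene Tnfrsf11a was at 72.4 ± 7.26 and 98.3 ± 27.6 and did not pass either.

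**Figure D2:**
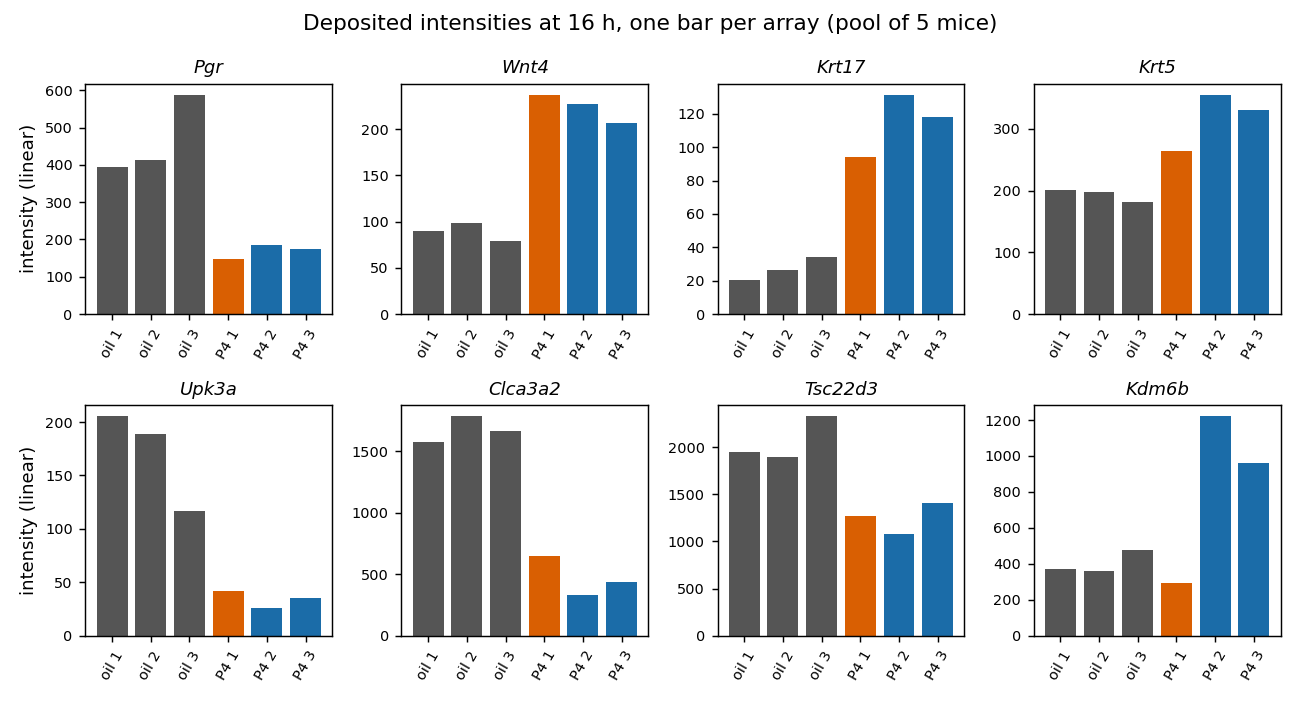
Deposited intensity (linear scale, bars from 0) of 8 genes on each array at 16 h, oil arrays in grey, progesterone replicate 1 in orange and replicates 2 and 3 in blue. In Pgr, Wnt4, Krt17, Krt5, Upk3a, Clca3a2 and Tsc22d3 all 3 progesterone bars lie to 1 side of the oil bars, while Kdm6b reads 291 on replicate 1, below the lowest oil array, and 1220.3 and 962 on the others.

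Other genes known to act below progesterone in this tissue did not pass the test at 16 h in the probe set used. Id4, an inhibitor of basic helix-loop-helix factors, read 248, 294 and 211 in oil and 379, 349.9 and 363 with progesterone. Its groups did not overlap, and its log2 difference of 0.55 ± 0.14 had an adjusted p of 0.111. Its 2 dimmer probe sets differed by 0.69 and 1.06, also without passing, and without progesterone replicate 1 by 0.78 and 1.36 (limma, adjusted p = 0.0118 and 0.00468 over all probe sets). Elf5, the regulator of the secretory lineage, read 171, 228 and 225 in oil and 181, 109.8 and 127 with progesterone, with replicate 1 inside the oil range (-0.60 ± 0.27, adjusted p = 0.254). The cyclin gene Ccnd1 was at 692 ± 17.3 and 765 ± 74.2 (0.14 ± 0.11), while its dimmest probe set differed by 0.70, and by 1.03 without replicate 1 (limma, adjusted p = 0.0126 over all probe sets). Of 18 tested genes on the list for the mammary progesterone response, Wnt4 rose and Pgr fell, and the list median was -0.18, beside -0.07 over all genes.

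Keratins and smooth muscle actin of the basal layer were among the rises. Krt17, a keratin of basal and stressed epithelium, had intensities of 20.2, 26.2 and 34.4 in oil and 94.1, 132 and 118 with progesterone, the largest rise of the comparison at 2.11 ± 0.40 (adjusted p = 0.0167). The oil values lay under the array medians, where a change is imprecise. Krt5 read 200.3, 198 and 181 in oil and 263, 355 and 331 with progesterone (0.70 ± 0.15, adjusted p = 0.0491). Progesterone replicate 1 was above oil in both genes and nearer to oil than the other progesterone arrays. Acta2, smooth muscle actin, which basal cells share with vessel walls, went from 3962, 3988 and 3880.3 to 4449.8, 5209.7 and 4811 (0.29 ± 0.06, adjusted p = 0.0491). A second, dimmer probe set of Acta2 differed by 0.55 and did not pass. Over 21 alternative settings, Krt17 kept its call in 15, Krt5 in 10 and Acta2 in 8. The calls of Krt5 and Acta2 were lost when any single array at 16 h other than progesterone replicate 1 was left out. Krt14, the partner of Krt5 in basal filaments, was at 286 ± 29.4 and 494 ± 43.8 without overlap, but its adjusted p was 0.0634.

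Of 24 basal markers tested, those 3 rose and none fell, with a list median of 0.10. Trp63, the transcription factor that maintains the basal state, was at 85.8 ± 9.96 and 77.4 ± 19.5 (-0.17 ± 0.24) and did not pass the test, and the vessel and basal myosin gene Myh11 differed by 0.02. The mean log2 difference from oil over the list was 0.25, 0.28 and 0.18 on progesterone replicates 1, 2 and 3, against -0.06 to 0.07 on the oil arrays. Skin keratinocyte genes, which share keratins with this layer, were higher without a call: 0 of 8 changed in limma's test (1 at an unadjusted p under 0.05), their median was 0.45, and their mean on the progesterone arrays was 0.58, 0.88 and 0.05. The part of skin in the basal result was not tested.

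The other rises are given by size and role. Cacna1g, a T-type calcium channel subunit, read 38.7, 40.7 and 27.1 in oil and 84.0, 75.5 and 95.1 with progesterone (1.27 ± 0.27, adjusted p = 0.0449). Ppp1r1b, a regulator of protein phosphatase 1, read 33.6, 46.6 and 31.2 and then 72.6, 79.2 and 86.8 (1.12 ± 0.24, adjusted p = 0.0491). Rnf180, a ubiquitin ligase, was at 18.2, 34.01 and 36.1 and then at 60.04, 82.2 and 62.7 (1.26 ± 0.28, adjusted p = 0.0491). In these 3 genes no array of one group reached the other, and the oil values lay under the array medians, as for Krt17. With the oil arrays from 4, 28 and 76 h as controls, where 4.53% of all genes were called, Rnf180 differed by 0.36 with an adjusted p of 0.367.

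Mboat1, which transfers acyl chains to lysophospholipids, read 149, 151 and 118 in oil and 354, 295 and 211 with progesterone (1.02 ± 0.19, adjusted p = 0.0141), and here replicate 1 was the highest of the progesterone arrays. A second, dimmer probe set of Mboat1 differed by -0.34 and did not pass. The transcription factor genes Tfap2b (0.78 ± 0.17) and Sox4 (0.48 ± 0.09) rose, the latter from 1176 ± 26.1 to 1645 ± 46.3, and its 4 other probe sets differed by 0.57 to 0.73 without passing the test. The keratin-binding Eppk1 (0.73 ± 0.16) and the sialomucin Podxl (0.64 ± 0.12) rose as well. Tceal9, of a family related to a transcription elongation factor, read 1959, 1827 and 1869 in oil and 2594, 2934 and 2703 with progesterone, a rise of 0.54 ± 0.08 with an adjusted p of 0.00119, as small as that of Pgr.

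**Figure D3:**
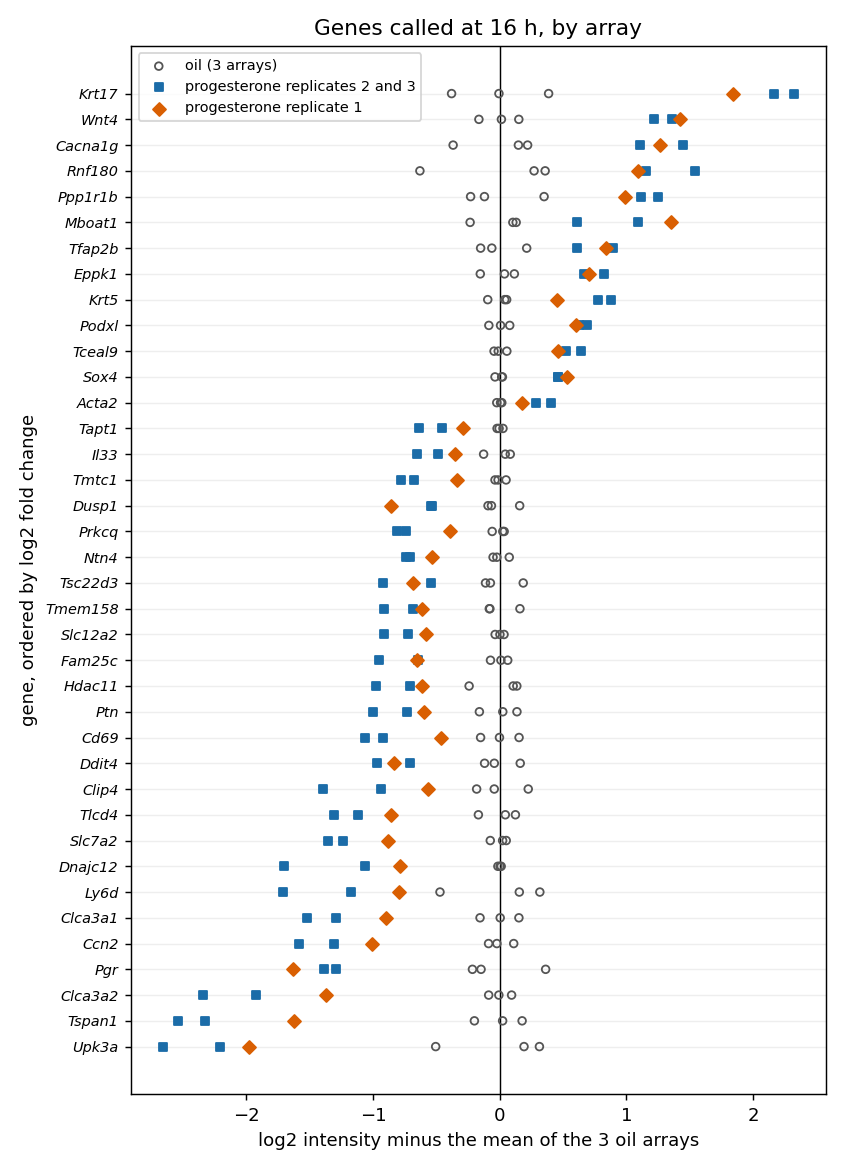
Log2 intensity of the 38 called genes on each array, minus the mean of the 3 oil arrays (open circles oil, diamonds progesterone replicate 1, squares replicates 2 and 3), ordered by log2 fold change from Upk3a at -2.28 to Krt17 at 2.11. Replicate 1 is the progesterone array nearest to oil in 27 of the 38 genes, and in none does it reach the oil values.

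The largest falls were those of Upk3a, Tspan1 and Clca3a2, followed by Pgr and Ccn2. Upk3a, a membrane protein best known from the bladder lining, read 205, 189 and 116 in oil and 42.0, 26.2 and 35.8 with progesterone (-2.28 ± 0.31, adjusted p = 0.000625). Tspan1, a tetraspanin, read 82.3, 91.6 and 70.5 in oil and 26.3, 16.2 and 13.9 with progesterone (-2.16 ± 0.29, adjusted p = 0.000625). In both genes every progesterone array lay far below the lowest oil array and below its own array's median. Of the other uroplakins tested, Upk2 was at 314 ± 74.5 and 326 ± 73.0 and Upk1a at 32.7 ± 13.4 and 33.4 ± 5.06, and neither passed the test.

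Clca3a1 and Clca3a2, regulators of calcium-activated chloride channels, are neighbours on chromosome 3 with no coding gene between them in RefSeq, and they fell together. Clca3a2 read 1574, 1784 and 1664 in oil and 647, 329 and 440.2 with progesterone (-1.88 ± 0.31, adjusted p = 0.00484), and Clca3a1 read 818, 1011 and 913 and then 488, 317 and 373 (-1.24 ± 0.22, adjusted p = 0.00803). No progesterone array reached the oil values, and replicate 1 was the highest of them in both genes. A second probe set gave -1.95 for Clca3a2 and -1.96 for Clca3a1. The genes are close relatives, and whether their probe sets read separate transcripts was not tested.

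More transporters and surface proteins fell. Slc12a2, the cotransporter of sodium, potassium and chloride, read 3263, 3350.1 and 3426 in oil and 2237, 2027 and 1779 with progesterone (-0.74 ± 0.10, adjusted p = 0.000625), and its 2 other probe sets gave -1.06 and -1.22. Slc7a2, which carries cationic amino acids, read 689, 737 and 752 and then 394, 307 and 283 (-1.16 ± 0.20, adjusted p = 0.00803). Ly6d, a lipid-anchored surface protein, read 428, 479 and 277 and then 222, 170.4 and 118 (-1.23 ± 0.20, adjusted p = 0.00383). In Ly6d oil replicate 3 was the lowest oil array and progesterone replicate 1 the highest progesterone array, 277 against 222.

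The J-domain cochaperone gene Dnajc12 was even within oil, at 305, 307 and 302, and spread with progesterone, at 176, 146 and 93.5 (-1.19 ± 0.19, adjusted p = 0.00384). Ptn, the heparin-binding growth factor pleiotrophin, read 1737, 1974 and 2133 in oil and 1285, 970.0 and 1169 with progesterone (-0.78 ± 0.15, adjusted p = 0.0141), and its 2 other probe sets gave -1.04 and, for the dimmest, -0.04. Tmem158, a membrane protein, fell by 0.74 ± 0.16 on the log2 scale. Of 14 tested markers of hormone-sensing cells 7 fell and 1, Wnt4, rose, with a median of -0.76, but Ly6d, Slc7a2, Ptn, Dnajc12, Tspan1 and Tmem158 had been placed in that list with their fall in these data known. Of the remaining members, Foxa1 (-0.40 ± 0.15), Gata3 (-0.45 ± 0.14), Cited1 (-0.66 ± 0.22), Prom1 (-1.09 ± 0.26) and Tbx3 (0.14 ± 0.17) did not pass the test.

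Transcripts known to respond to glucocorticoids made up 3 of the falls. The glucocorticoid and progesterone receptors are related and bind the same kind of DNA element. Tsc22d3, which encodes the glucocorticoid-induced leucine zipper, has 3 promoter windows in RefSeq. The other 2 hold no AGAACA. The one shown, chrX:140600473-140600772 on the minus strand (GRCm38.p6), holds AGAACA, 1 arm of that element, on the opposite strand, starting at base 66 and set in capitals. The window runs from 250 bases before to 50 bases after an annotated start:
Tsc22d3: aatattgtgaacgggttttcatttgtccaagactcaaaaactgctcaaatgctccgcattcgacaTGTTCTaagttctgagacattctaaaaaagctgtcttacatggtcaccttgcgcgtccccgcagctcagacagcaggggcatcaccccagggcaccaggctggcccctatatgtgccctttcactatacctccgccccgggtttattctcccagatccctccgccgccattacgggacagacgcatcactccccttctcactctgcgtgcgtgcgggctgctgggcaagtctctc
The full element of both arms, searched on both strands as a hormone response element with free bases at its less conserved positions, was in the windows of 0 of the 25 called genes that the promoter table holds and of 0.537% of all 27025 genes. The single arm AGAACA, which can lie inside a full element, was in those of 7 of the 25 (28.0%), namely Acta2, Hdac11, Ptn, Rnf180, Tceal9, Tlcd4 and Tsc22d3, and of 21.3% of all genes. These letters are a description of the windows and show no binding.

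Tsc22d3 read 1944, 1893 and 2326 in oil and 1273, 1078 and 1406 with progesterone (-0.72 ± 0.16, adjusted p = 0.0491). Ddit4, an inhibitor of the growth kinase mTORC1, read 1667, 1758 and 2027 and then 1018, 925 and 1112 (-0.84 ± 0.16, adjusted p = 0.0167). Dusp1, a phosphatase of MAP kinases, read 2079, 2118 and 2472 and then 1223, 1520.3 and 1528 (-0.65 ± 0.14, adjusted p = 0.0449). In all 3 the highest array was oil replicate 3, and progesterone replicate 1 was not the progesterone array nearest to oil. Of 22 glucocorticoid-responsive genes tested these 3 fell and none rose, with a median of -0.19. Of the list 72.7% were lower, beside 64.7% of all genes. Over 21 alternative settings, Ddit4 kept its call in 16, Dusp1 in 10 and Tsc22d3 in 8. Of the list's other well-known members, Fkbp5 read 429, 467 and 469 in oil and 494, 397 and 340.2 with progesterone and did not pass. Per1 read 381, 343 and 316 and then 194, 159.7 and 198, with groups far apart but an adjusted p of 0.147. Mt2, a metallothionein gene, went the other way, from 884 ± 106 to 1371 ± 17.9 (0.64 ± 0.18), with the same adjusted p of 0.147. At an unadjusted p under 0.05 in limma's test, 8 members of the list were lower and 3 higher. Over all 12352 genes, 1623 (13.1%) were lower and 561 higher at that threshold. With oil from 4, 28 and 76 h as control, the list median was -0.06, beside -0.02 over all genes. Against that control Dusp1 stood at -0.21, with an adjusted p of 0.283.

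Ccn2, the connective tissue growth factor and a common YAP and TGF-beta target, read 765, 731 and 838 in oil and 385, 259 and 314 with progesterone, a fall of 1.30 ± 0.17 on the log2 scale (adjusted p = 0.000625). No progesterone array came near the oil values. Its relative Ccn1 was at 274 ± 32.5 and 358 ± 87.5 (0.36 ± 0.18) and did not pass. Of 15 YAP and TGF-beta targets tested, Ccn2 alone changed, and their median was -0.05.

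The remaining falls were of mixed roles. Il33, an alarm cytokine of barrier tissue, went from 841 ± 63.9 to 596 ± 61.5 (-0.50 ± 0.10, adjusted p = 0.0267). Cd69, an early activation marker of lymphocytes, went from 231 ± 24.3 to 133 ± 30.0 (-0.81 ± 0.18), and Prkcq, the kinase PKC theta of T-cell receptor signalling, from 545 ± 19.4 to 351 ± 56.0 (-0.65 ± 0.14). The laminin-binding Ntn4 (-0.66 ± 0.14), the deacetylase Hdac11 (-0.77 ± 0.14), Tlcd4 (-1.09 ± 0.19), Clip4 (-0.97 ± 0.18), Fam25c (-0.75 ± 0.16), Tmtc1 (-0.60 ± 0.13) and Tapt1 (-0.46 ± 0.08) fell too. For Clip4 the 2 other probe sets gave 0.11 and 0.15, and for Tlcd4, 2 of the 3 others gave -1.16 and -1.14 and the last 0.20. Of 15 called genes with more than 1 probe set, 12 had all of them on 1 side. Prkcq, Clip4, Tmtc1 and Il33 did not keep the call with oil from 4, 28 and 76 h as control, where Il33 stood at -0.17.

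Lymphocyte markers were lower beside these last genes, but not they alone. Without a call, 16 of 18 macrophage markers (88.9%, median -0.14) and 20 of 22 interferon-response genes (90.9%, median -0.17) were lower too. Of 15 T-cell markers 0 changed in limma's test (7 at an unadjusted p under 0.05, all lower), 12 were lower and their median was -0.33 (-0.42 without replicate 1). Over all genes tested 64.7% were lower, and 13.1% were lower at an unadjusted p under 0.05. Of 15 B-cell and plasma-cell markers 0 changed (4 at an unadjusted p under 0.05, all lower), 14 were lower and the median was -0.24 (-0.32 without replicate 1). The mean over the T-cell list was -0.18, -0.34 and -0.24 on the progesterone arrays against -0.07 to 0.06 on the oil arrays. Il7r was at 1252 ± 71.3 and 930.4 ± 57.8, and the plasma-cell protein Jchain at 4776 ± 141 and 3453 ± 12.9. The part of lymphocytes in the values of Cd69 and Prkcq was not tested.

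Genes of mitosis were lower without a call. Of 32 tested, 0 changed in limma's test (12 at an unadjusted p under 0.05, all lower), 27 were lower and 19 had groups that did not overlap, all of them lower, beside 11.7% of all genes in that direction. The list median was -0.45 (-0.53 without replicate 1), and the mean over the list was -0.22, -0.36 and -0.51 on progesterone replicates 1 to 3. Mki67, the proliferation marker, read 398, 439 and 551 in oil and 338, 339 and 283 with progesterone (-0.52 ± 0.21, adjusted p = 0.225). The 5 members that were higher included Plk1 (0.35) and Cdc20 (0.19). For DNA replication, 0 of 29 genes changed (8 at an unadjusted p under 0.05, 7 of them lower), 21 were lower and the median was -0.22 (-0.29 without replicate 1). That is 72.4% lower, beside 64.7% of all genes.

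Skeletal muscle genes had a median of -0.68 (-0.81 without replicate 1), and every one of 23 tested was lower while 0 changed in limma's test (7 at an unadjusted p under 0.05). Their mean was -0.76 on oil replicate 1 but 0.49 and 0.27 on oil replicates 2 and 3, and -0.56, -0.52 and -1.05 on the progesterone arrays. On this mean oil replicate 1 lay among the progesterone arrays, although in 14 of the 23 genes the groups did not overlap (60.9%, beside 11.7% of all genes in that direction). With oil from 4, 28 and 76 h as control, the list median was 0.30. The immediate early genes were at a median of 0.11 with 0 of 19 called (6 at an unadjusted p under 0.05, 4 of them higher). Over all 12352 genes, 561 were higher and 1623 lower at that threshold. Egr2 differed by 1.11 in the probe set used (adjusted p = 0.0573, limma). Its second, dimmer probe set rose by 1.26 (limma, adjusted p = 0.00789 over all probe sets). The 15 WNT and EGF-family signals were at a median of 0.20 with Wnt4 alone called.

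**Figure D4:**
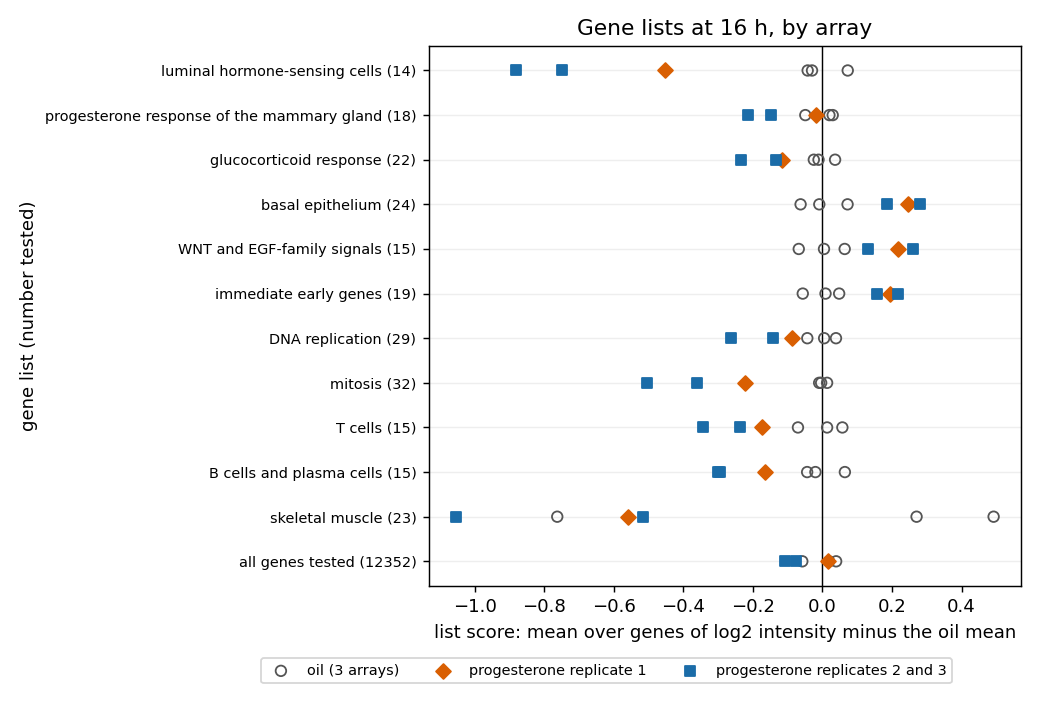
Mean over the tested members of each gene list of log2 intensity minus the mean of the 3 oil arrays, 1 point per array at 16 h (open circles oil, diamonds progesterone replicate 1, squares replicates 2 and 3). Progesterone replicate 1 lies between oil and the other progesterone arrays for hormone-sensing, mitosis and T-cell genes (6 of the 14 hormone-sensing genes were listed with their fall in these data known), and for skeletal muscle oil replicate 1 lies at -0.76, apart from the other oil arrays.

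Without progesterone replicate 1 the picture widened. The 2 remaining progesterone arrays against the 3 oil arrays gave 1843 changed genes, 14.9% of those tested, 406 higher (3.29%) and 1437 lower (11.6%), with a median over all genes of -0.12. Quantile normalization gave 492 higher and 796 lower. All 38 genes called with every array were called here in the same direction, and 32 of them had a larger change, 23 falls and 9 rises. This is no independent support, since the 38 were chosen on the same arrays. The array left out was the progesterone array nearest to oil in 27 of them, so larger changes follow in part from leaving it out. The count again rested on single arrays, since it was 185 when progesterone replicate 3 was left out as well, 642 without replicate 2, and 386, 508 and 2258 without oil replicates 1, 2 and 3. The fit assumes that an array left alone in its group varies like the arrays of the other groups.

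The array set aside did not show most of these changes. Of the 1843 genes, progesterone replicate 1 lay beyond all oil arrays on the same side as the other 2 progesterone arrays in 668 (36.2%), within the oil range in 883 (47.9%) and beyond oil on the other side in 292 (15.8%). Over all genes tested these shares were 26.7%, 51.3% and 22.0%. The groups of 3 did not overlap in 667 of the 1843, and in 2113 of all 12352 genes tested (17.1%). A call of this comparison is therefore a difference of 2 pools from oil, and the value of replicate 1 is given for the genes described singly.

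Some of its largest rises were not shared by replicate 1. Kdm6b, a histone H3K27 demethylase, read 369, 361 and 478 in oil and 291, 1220.3 and 962 with progesterone, 1.44 without replicate 1 (adjusted p = 0.0136). Taf15, an RNA-binding protein, read 262, 269 and 413 and then 239, 663 and 647 (1.09, adjusted p = 0.0206). Rcor1, a corepressor, read 447, 387 and 615 and then 347, 982 and 1015 (1.08, adjusted p = 0.0230). In these genes replicates 2 and 3 stood together above oil and replicate 1 below all 3 oil arrays. The other probe sets did not rise: without replicate 1 they differed by -0.08 and 0.01 for Kdm6b and by -0.42 (limma, adjusted p = 0.0114 over all probe sets) and -0.26 for Rcor1, while Taf15 had 1 probe set that passed the filter.

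Other rises were seen on all 3 progesterone arrays. Acot1, an acyl-CoA thioesterase, read 106, 139.7 and 118 in oil and 312, 276 and 234 with progesterone, 1.08 without replicate 1 (adjusted p = 0.0262) and 1.18 ± 0.27 with it (adjusted p = 0.0613). Egr2, an immediate early transcription factor, read 309.9, 351 and 274 and then 743, 856 and 468 (1.03, adjusted p = 0.0237), and Spon2, a matrix protein, 86.3, 78.1 and 35.8 and then 147, 147 and 119.7 (1.09, adjusted p = 0.0261). The groups of these 3 genes did not overlap. Of 19 immediate early genes Egr1, Egr2, Nr4a2 and Nr4a3 rose and none fell, beside 3.29% of all genes higher and 11.6% lower. Replicate 1 lay under the oil arrays for Nr4a2, at 154, and inside the oil range for Nr4a3, at 94.6.

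Further members of the progesterone list passed the test in this comparison: Id4 (0.52) and Tnfrsf11a (0.66) rose with Wnt4, and Gata3 (-0.56) and Cited1 (-0.79) fell with Pgr. That is 3 of 18 tested higher and 3 lower, beside 3.29% and 11.6% of all genes. Replicate 1 of Tnfrsf11a, at 66.6, lay inside the oil range of 65.5 to 80.0. Cited1, a coactivator of the estrogen receptor, read 406, 415 and 419 in oil and 313, 232 and 246 with progesterone, without overlap. Tnfsf11 stood at -0.67 with an adjusted p of 0.0847. Axin2, a common target of WNT signalling, rose by 0.45 (adjusted p = 0.0193) from 157, 154 and 180.1 to 211, 221 and 224, with replicate 1 beside the others. Wnt7b rose by 0.84, but its replicate 1 value of 73.8 lay within the oil range of 42.3 to 75.5.

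In the same comparison 6 of 24 basal markers were called higher and 3 lower. Over all genes tested, 3.29% were called higher and 11.6% lower. Krt5, Krt14, Krt15, Krt17, Acta2 and the growth factor-binding Igfbp2 rose, while the hemidesmosome collagen Col17a1 (-0.77), the laminin chain Lama3 (-0.58) and Dkk3 (-0.74) fell. Replicate 1 lay inside the oil range for Krt15 (52.0), Col17a1 (42.2) and Dkk3 (73.4). Of 16 luminal markers tested, 1 rose and 1 fell. The tight junction gene Cldn3 rose (0.94), from 256, 269.8 and 390.1 to 413, 539 and 615. The transcription factor Ehf fell (-0.89), with replicate 1 above oil at 71.5. Among 14 secretory markers tested, none rose and 2 fell, Kit and Glycam1. The secretory progenitor marker Kit fell by 0.58 with replicate 1 at 411, inside the oil range of 404 to 429.

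Among the 38 genes called with all arrays, the largest falls were again those of Upk3a (-2.43) and Tspan1 (-2.43). Among genes outside the 38 whose remaining arrays did not overlap, the largest were those of Mylk4, a muscle kinase (-2.26), Pwwp3b (-1.81), Capsl (-1.79) and Trim63, a muscle ubiquitin ligase (-1.77). Mylk4 read 99.2, 339 and 352 in oil and 60.3, 58.1 and 38.9 with progesterone, with oil replicate 1 low as in the skeletal muscle list. Prom1, a membrane protein of luminal cells, read 129, 153 and 123 and then 97.5, 61.0 and 41.9 (-1.41, adjusted p = 0.00424), and the surface protease Tmprss2 309, 346 and 283 and then 239, 139 and 109 (-1.34, adjusted p = 0.0063). In both, replicate 1 lay between oil and the others. Clec2d, a ligand of natural killer cell receptors, read 754, 987 and 310.0 and then 929, 226 and 201 (-1.53, adjusted p = 0.0106), with replicate 1 near the top of the oil range. Of the glucocorticoid list Per1, Klf9, Cebpd and Sult1a1 fell beside Tsc22d3, Ddit4 and Dusp1, while the metallothionein gene Mt2 rose. T-cell markers that fell were Cd3d, Cd8b1, Icos, Ccr7 and Il7r, 5 of 15 tested, and of 32 mitosis genes Birc5 and Nusap1 fell. Over all genes tested, 11.6% were called lower in this comparison, a larger share than among the mitosis genes. Of these glucocorticoid, T-cell and mitosis genes, replicate 1 lay inside the oil range for Cd8b1 (543) and Sult1a1 (3778), and beyond oil on the side of the other progesterone arrays for the rest.

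The 38 genes were followed at the other times, each against its own oil arrays. At 4 h 8 of them had changed in the same direction (21.1% of the 38 and 34.8% of the 23 genes called then, themselves 0.186% of those tested), at 28 h 24 (63.2% of the 38, 7.67% of 313 called, 2.53% of those tested) and at 76 h 17 (44.7% of the 38, 0.774% of 2195 called, 17.8% of those tested). Called or not, 32 of the 38 differed from oil in the same direction at 4 h, all 38 at 28 h and 26 at 76 h. The share of all genes that kept their direction was not computed. At 76 h 6 of the 25 falls were called as rises, as were 11.1% of all genes, among them Upk3a (0.98), Tspan1 (0.93), Ptn (0.73) and Il33 (0.99). Whether any of these effects differs from that at 16 h was tested directly.

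**Figure D5:**
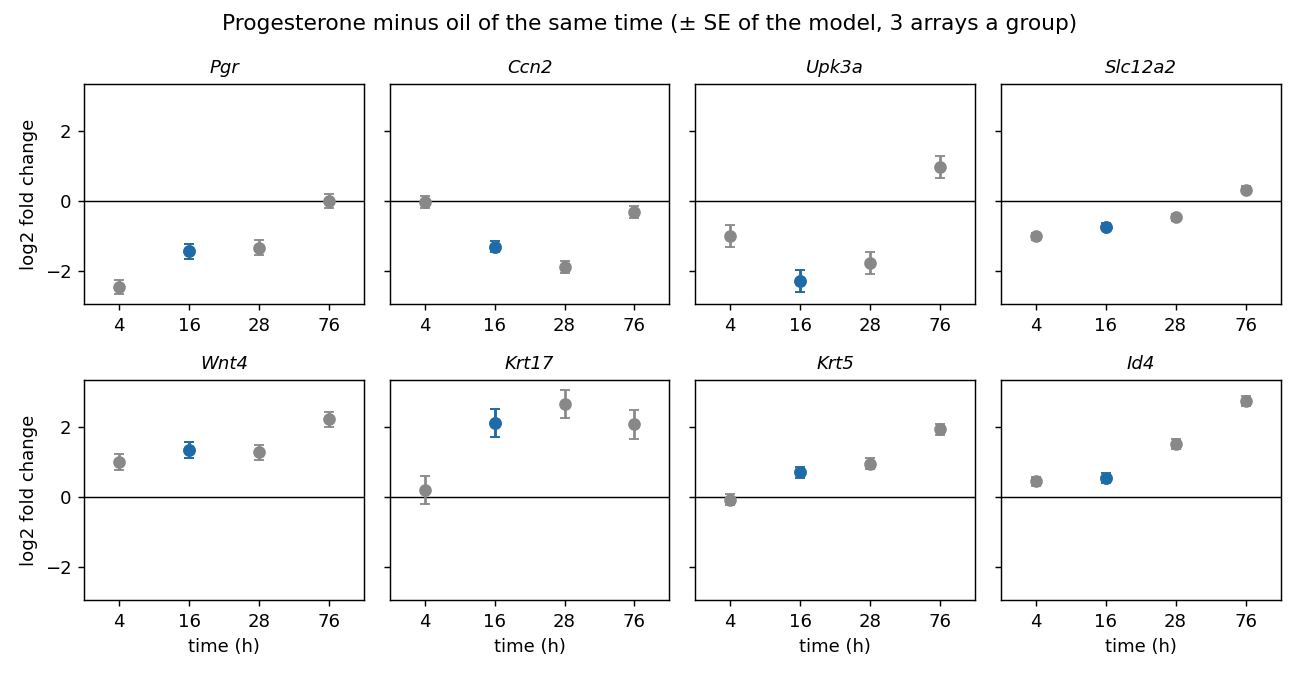
Log2 fold change of progesterone over oil at 4, 16, 28 and 76 h for 8 genes (points, with SE of the model, 3 arrays a group; 16 h in blue). Pgr is lower at 4, 16 and 28 h (-2.45, -1.44 and -1.33) and 0.00 at 76 h, Ccn2 reads -0.03 at 4 h and -1.30 at 16 h, and Krt17 0.19 and 2.11.

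Against 4 h, 1 gene of 12352 (0.0081%) differed with all arrays. Aldh3a1, an aldehyde dehydrogenase, had read 32.9 ± 9.94 in oil and 457 ± 108 with progesterone at 4 h, and read 30.9, 26.2 and 19.1 in oil and 60.6, 49.0 and 37.8 with progesterone at 16 h, so that the effect was smaller at 16 h by 2.87 ± 0.40 on the log2 scale (difference -2.87, adjusted p = 0.00394). Its groups at 16 h did not overlap, but its own adjusted p there was 0.152. B3gnt7, a glycosyltransferase, was at 226 ± 76.9 with progesterone at 4 h and 60.4 ± 6.99 at 16 h, and the adjusted p of its difference was 0.210. Ccn2 was at 559 ± 12.5 and 552 ± 78.2 at 4 h, and the difference of -1.27 ± 0.23 had an adjusted p of 0.0695. Pgr had a larger fall at 4 h than at 16 h, by 1.01 ± 0.29, which did not pass the test (adjusted p = 0.264).

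Without progesterone replicate 1, 467 genes (3.78%) differed between 16 and 4 h, 97 higher (0.785%) and 370 lower (3%) at 16 h. Ccn2 (-1.42, adjusted p = 0.0202), Rassf6 (-1.49, adjusted p = 0.00248), Krt5 (0.91, adjusted p = 0.0329) and Pgr (1.11, adjusted p = 0.0486) were among them. Fgg, the fibrinogen gamma chain, which read 365 ± 132 with progesterone at 4 h and 156 ± 39.1 at 16 h, differed by -2.14 (adjusted p = 0.0224). With progesterone replicate 1 of 16 h kept, leaving out progesterone replicate 3 of 4 h gave 98 genes in place of 1.

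Against 28 h, 26 genes (0.210%) differed, all of them lower at 16 h, and those named here are of the 10 with the smallest p. Vcan, a matrix proteoglycan, read 168 ± 22.1 in oil and 190.1 ± 44.1 with progesterone at 16 h and 56.3 ± 23.2 and 216 ± 37.1 at 28 h (difference -1.85 ± 0.32, adjusted p = 0.0151). Sema3c, a secreted semaphorin, was at 1648 ± 81.2 and 1575 ± 26.9 and then at 750.2 ± 149.9 and 1359 ± 166 (-0.93 ± 0.14, adjusted p = 0.0151), and the protease Plat at 508 ± 72.7 and 523 ± 16.4 and then at 176 ± 60.4 and 481 ± 70.4 (-1.44 ± 0.26, adjusted p = 0.0151). In these genes the largest gap between the times lay in the oil arrays, which were low at 28 h. Among the progesterone-responsive genes tested, Id4 differed, with 364 ± 14.7 at 16 h and 601 ± 131 at 28 h with progesterone (-0.97 ± 0.20, adjusted p = 0.0453). Leaving out single arrays gave between 0 and 106 genes, 0 without oil replicate 2 or progesterone replicate 2 or 3 of 16 h (638, 656 and 638 at an unadjusted p under 0.05), and 84 (0.68%) without progesterone replicate 1.

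Against 76 h, 1375 genes (11.1%) differed, 311 higher (2.52%) and 1064 lower (8.61%) at 16 h, and with quantile normalization 501 and 792. Without progesterone replicate 1 there were 2505 (20.3%). Several genes of the later response stood far below their later level. Tnfsf11 was at 43.9 ± 23.2 with progesterone at 16 h and 360.1 ± 1.66 at 76 h (difference -3.29 ± 0.41, adjusted p = 1.64e-05), and Rspo1, an enhancer of WNT signalling, at 28.9 ± 9.65 and 338 ± 22.9 (-3.71 ± 0.35, adjusted p = 7.00e-07). Elf5 was at 139 ± 37.2 and 778 ± 66.2, Krt15 at 74.7 ± 20.05 and 490.4 ± 55.5, and Mki67 at 320.2 ± 32.1 and 1085 ± 210.1. Of the 38 genes changed at 16 h, 19 differed between these times. Wnt4 rose at both, by 1.33 at 16 h and 2.22 at 76 h, and its difference did not pass the test (adjusted p = 0.0703).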

How the data were processed

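RNA of pooled mammary glands was hybridised, after one-cycle biotin labelling per the labels' protocols, to 1 Affymetrix array per pool. The deposited values are linear intensities for 45101 probe sets on 24 arrays, 8 groups of 3; the software that summarised and scaled the probes is not given in the sources used here, so how far scaling shaped a difference is unknown. Array medians lay between 62.8 and 70.2, which limits what dim probe sets can show. Intensities were floored at 7.38 (the 10th percentile) and put on the log2 scale. Probe sets naming 1 gene (34945; 932 named several, 9160 none; GEO platform annotation of 2016, and 64 control probe sets were left out) and above their array's median on at least 3 arrays were kept, and the one with the highest mean stood for its gene.

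One mean per group was fitted over all 24 arrays (23 without progesterone replicate 1) with limma 3.58.1 in R 4.3.3 (trend, 16 residual degrees of freedom), with Benjamini-Hochberg adjustment over 12352 genes and calls at an adjusted p under 0.05; differences between times are contrasts of that fit. Tested on simulated data at 16 h, it recovered 54%, 90%, 98% and 100% of genes changed by 0.5, 1, 1.5 and 2 (log2), and 6.56% of its calls were unchanged genes. The simulated noise was normal, independent between arrays and of equal spread on every array, and no array deviated from its group. Progesterone replicate 1 does deviate, so these rates cannot be carried over to the real comparison. Alternatives changed the normalization, filter, floor, probe set rule, variance model, array weights, arrays, controls and threshold.

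The genes named are those called at 16 h whose arrays do not overlap; of the fit without progesterone replicate 1, the 20 largest rises and the 20 largest falls of that kind; of each list, up to 6 called members; of each difference between times, the 10 smallest p; and 27 genes always looked up, of which Areg did not pass the filter. Other list members named for comparison were chosen after their values were seen. The comparison, the lists and the rule were chosen with earlier results of these data known. Promoter windows are those of RefSeq (GRCm38.p6), which the table used here gives for 25 of the 38 called genes.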

Additional observations from a re-analysis of the deposited data

Results flagged for a closer look

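The progesterone effect at 16 h differed from that at another time in 29 tests on genes called at 16 h or always looked up (interaction contrast of limma, adjusted p under 0.05; no explanation was tested). Against 4 h the gene was Aldh3a1, at -2.87 (log2 effect at 16 h minus that at 4 h). Against 28 h it was Id4, at -0.97.

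Against 76 h, falls that were smaller or turned into a positive difference at the later time gave the differences of Upk3a (-3.26), Tspan1 (-3.10), Tlcd4 (-1.84), Ptn (-1.50), Il33 (-1.49), Pgr (-1.44), Dnajc12 (-1.20), Fam25c (-1.18), Hdac11 (-1.13), Slc12a2 (-1.06), Ccn2 (-0.98), Clip4 (-0.86) and Tapt1 (-0.57). Rises that were larger at 76 h gave those of Tfap2b (-1.41), Krt5 (-1.23), Sox4 (-0.87), Eppk1 (-0.71) and Tceal9 (-0.41). Rnf180 differed the other way, at 1.69. Of the genes that had not passed the test at 16 h, Tnfsf11 (-3.29), Elf5 (-2.96), Trp63 (-2.83), Krt15 (-2.51), Id4 (-2.18), Mki67 (-2.05) and Ccnd1 (-1.15) had higher effects at 76 h, and Aldh3a1 (1.41) a lower one.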

How the results depend on the processing

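The 38 calls at 16 h became 7332 with array weights, 83 with the replicate block, 16 with the arrays of 16 h alone, 13 and 67 at adjusted p under 0.01 and 0.1, and 559 with oil from 4, 28 and 76 h as control; single arrays left out gave 8 to 1843. Without progesterone replicate 1 the 1843 became 4244, 918 (replicate block), 521, 188 and 3307 in that order, and 185 to 2258 with a further array left out. The 1 gene that differed from 4 h became 3 (quantile), 2 (no filter), 5 (pseudocount of 16), 5234 (weights), 4 (replicate block), 4 (arrays of both times alone) and 4 (0.1), and 1 to 467 with an array left out. The 26 that differed from 28 h became 15 (quantile), 4 (no filter), 12 (no intensity trend), 1891 (weights), 102 (replicate block), 0 (both times alone; 595 at an unadjusted p under 0.05), 0 (0.01; 896 unadjusted) and 63 (0.1), and 0 to 106. The 1375 that differed from 76 h became 6378 (weights), 636 (0.01) and 2074 (0.1), and 831 to 2505. Changes of threshold and of the number of arrays alter the test by construction; the cause of the others was not tested.

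With that control the 16 h differences of Sema3c (0.46), Efhd1 (0.60), Tmem100 (0.77) and Crispld1 (0.80) reversed, and without progesterone replicate 1 those of Sema3c (0.46), Efhd1 (0.56), Igfbp6 (0.60) and Tmem100 (0.59). Cebpd without replicate 1 reversed to 0.17 with the mean of its probe sets. None of the 38 reversed under any setting run, and 7 (Upk3a, Tspan1, Pgr, Wnt4, Ccn2, Slc12a2 and Tceal9) kept the call in every setting that tested them. The labels give no shared source for equal replicate numbers, so the arrays were not treated as paired. Same-numbered arrays at 16 h deviated together at r = 0.342, -0.018 and 0.346. Replicates 1 and 3 correlated best with their own number there and replicate 2 did not. Replicate 3 did so at 4, 28 and 76 h too (0.340, 0.145 and 0.206, against at most -0.022, -0.093 and -0.033 with another number). At these times replicate 1 did so at 4 h alone and replicate 2 at 76 h alone. This is a hint from the data only.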
